A study of Homo sapiens with 30 samples.

Results

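The 44 genes described here code for proteins that build ribosomes in the nucleolus. They were chosen by name from their known roles, with earlier results of these data known, and all 44 were found among the 58278 genes counted. Their mRNA was measured in 30 libraries of HEK293, an established human embryonic kidney cell line of genotype wt. The cells carried a plasmid for an EGFP-mCherry mistranslation reporter, introduced by transfection, so every group, controls included, overexpresses a reporter. A missense-correcting tRNA (mc-tRNA) is engineered so that the amino acid it carries does not match its anticodon. Each reporter was given alone or on the same plasmid as its own mc-tRNA. For EGFP(R65) this was Ser-tRNA_Arg(CCG), and for EGFP(R96Q) it was Arg-tRNA_Gln(CUG). EGFP(R96C) was paired to Arg-tRNA_Cys(GCA). The EGFP(R96H) plasmid held Arg-tRNA_His(GUG). Cells with EGFP(R96W) received Arg-tRNA_Trp(CCA). That makes 10 groups of 3 libraries, from mCherry-positive cells sorted 48 h after transfection. All values come from 1 cell line under transient overexpression, and no group lacks a reporter.

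Ribosomes are assembled in the nucleolus, where RNA polymerase I transcribes the precursor of the large ribosomal RNAs. Small nucleolar RNPs (snoRNPs) of the box C/D type guide methylation and those of the box H/ACA type guide pseudouridylation of that precursor. Large sets of assembly factors then fold and cut it into the small and the large subunit, and many of their genes are known targets of the growth regulator MYC.

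Libraries held 39017548 to 55446962 counts in genes, and the lowest count of any of the 44 genes in any library was 328. The marker genes of the line that are given here (PAX2, LHX1, NEFL, NEFM and INA) were detected in all 30 libraries. Of the 12 markers of blood, stromal, endothelial and keratinocyte cells, CD3E, HBB, KRT5 and KRT14 were at or under the level of 3 counts in all 30 libraries and PTPRC in 29. CD14 (0.491 to 12.8 CPM) and COL1A1 (15.2 to 34.9 CPM) were detected in every library. LUM (up to 2.56 CPM) was at or under 3 counts in only 3 libraries and PECAM1 (up to 1.96 CPM) in 10. LYZ was so in 22, CDH5 in 26 and DCN in 27. The 6 EGFP(R65) libraries stand apart: they hold 0 counts of the ERCC spike-in sequences, against 10 to 106 in the 24 EGFP(R96) libraries. In the libraries with Arg-tRNA_Cys(GCA), the 10 most abundant genes took 10.1% to 10.4% of the counts, against 4.56% to 6.89% elsewhere. The part of this share in values scaled to the library total was not tested. The share of mitochondrial counts moved with the mc-tRNA. It was 3.34% to 3.52% in EGFP(R65), against 2.80% to 2.87% with Ser-tRNA_Arg(CCG), and 5.15% to 6.00% in EGFP(R96C), against 3.504% to 3.738% with Arg-tRNA_Cys(GCA). In EGFP(R96W) it was 4.53% to 5.07%, against 2.90% to 3.25% with Arg-tRNA_Trp(CCA), and in EGFP(R96Q) 4.46% to 4.64%, against 4.23% to 4.37% with Arg-tRNA_Gln(CUG). With Arg-tRNA_His(GUG) it was higher, 5.44% to 5.76% against 4.83% to 4.99%. Its part in the changes of the 44 genes was not tested. Unless stated, values are CPM (gene counts relative to the library) scaled by TMM. This factor centres a trimmed mean of the log ratios between libraries, and it takes most genes to be unchanged. Differences are on the log2 scale, with their SE, for 3 libraries against 3. A gene rose or fell where its edgeR p, adjusted over 22321 genes, was under 0.05.

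The mc-tRNAs differed in how many of the 44 genes they moved. With Ser-tRNA_Arg(CCG), 7 rose and 22 fell, where 57.3% of all genes tested passed the test (26.6% rose and 30.7% fell). The median change of the 44 was -0.16, against -0.02 over all genes. With Arg-tRNA_Cys(GCA), 11 rose and 22 fell, where 60.7% of all genes passed (30.2% rose and 30.5% fell), and the medians were -0.18 and -0.04. With Arg-tRNA_Trp(CCA) the balance was the other way: 17 rose and 9 fell, where 42.5% of all genes passed (20.7% rose and 21.7% fell), with medians of 0.08 and -0.03. The share of the 44 that passed was 65.9% with Ser-tRNA_Arg(CCG), 75% with Arg-tRNA_Cys(GCA) and 59.1% with Arg-tRNA_Trp(CCA), in each case above the share of all genes. Genes with fewer counts are harder to call, and no set of like level was compared. Of the 44, 50% fell with Ser-tRNA_Arg(CCG) and 50% with Arg-tRNA_Cys(GCA), and 38.6% rose with Arg-tRNA_Trp(CCA).

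The remaining mc-tRNAs moved few. With Arg-tRNA_His(GUG), 4 rose and 0 fell, where 2.51% of all genes passed (1.56% rose and 0.95% fell). Of the 44 changes, 42 were positive, with a median of 0.14 against -0.00 over all genes, and 21 had an unadjusted p under 0.05. Over all 22321 genes 10994 changes were positive and 3629 had an unadjusted edgeR p under 0.05. With Arg-tRNA_Gln(CUG), 0 rose and 0 fell by edgeR and by DESeq2, where 0.551% of all genes passed (0.273% rose and 0.278% fell), and 2 of the 44 had an unadjusted p under 0.05. Over all 22321 genes 2270 had such a p. Without 1 library the Arg-tRNA_His(GUG) count ran from 0 to 8. It was 2 without EGFP(R96H) replicate 1, 8 without EGFP(R96H)+Arg-tRNA_His(GUG) replicate 3, and 0 without any of the other 4. With only the 6 libraries compared 13 rose, where 1911 of all genes were called against 560 in the fit of all 30 libraries, and with the replicate number as a block 10 rose and 1124 of all genes were called. Averaged over the 5 effects, 15 rose and 15 fell, where 58.4% of all genes passed (28.2% rose and 30.1% fell). Scaled to library totals this mean gives 4 rises and 30 falls. In bulk RNA, fewer cells expressing a gene and less RNA per cell cannot be told apart.

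**Figure D1:**
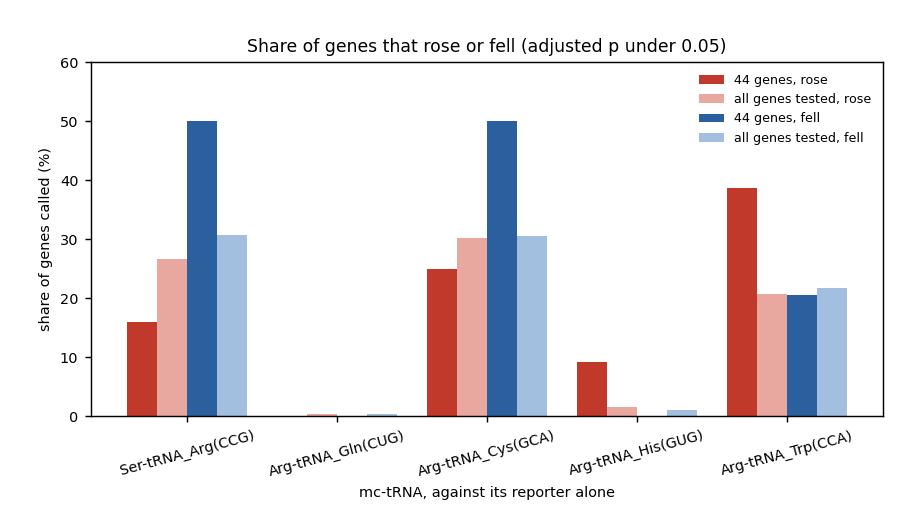
Share of the 44 genes and of all genes tested that rose or fell with each mc-tRNA against its reporter alone, in percent. Among the 44, falls outnumber rises with Ser-tRNA_Arg(CCG) and Arg-tRNA_Cys(GCA), and rises outnumber falls with Arg-tRNA_Trp(CCA).

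The scaling bears on the Arg-tRNA_Cys(GCA) counts. TMM takes most genes to be unchanged, yet 60.7% of all genes passed with Arg-tRNA_Cys(GCA) and 57.3% with Ser-tRNA_Arg(CCG). Whether its centre is right was not tested. Scaled to library totals alone, the median of all genes moved from -0.04 to -0.59 there, and of the 44 genes 3 rose and 38 fell. The share of all called genes that rose moved from 49.8% to 20.2%. In Arg-tRNA_Trp(CCA) the median moved from -0.03 to -0.16, the share from 48.8% to 31.4%, and 11 of the 44 rose. The share moved from 49.6% to 38.3% for Arg-tRNA_Gln(CUG) and from 62.1% to 48.4% for Arg-tRNA_His(GUG). Changes are given relative to the TMM centre, and those whose direction flips are named with their group. On library totals the Arg-tRNA_Trp(CCA) rises of NOP56, GAR1, RRN3, UTP14A, WDR43 and TSR1 did not pass (adjusted p 0.0633 to 0.768), nor did the Ser-tRNA_Arg(CCG) rises of UTP14A (0.0715) and NIP7 (0.0565) or the Arg-tRNA_His(GUG) rises of NOP58 (0.0578) and GNL3 (0.0719).

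Libraries with and without the mc-tRNA did not overlap for 34 of the 44 genes in the Ser-tRNA_Arg(CCG) comparison (66.3% of all genes). The number was 35 for Arg-tRNA_Cys(GCA) (61.8%) and 22 for Arg-tRNA_Trp(CCA) (47.8%). It was 21 for Arg-tRNA_His(GUG) (27%) and 6 for Arg-tRNA_Gln(CUG) (16.2%). By an F-test, the 5 effects differed for 38 of the 44 genes, against 72.5% of all genes tested. The 6 others were FBL, NOB1, UTP4, NOP10, UTP14A and DDX10. FBL, UTP4, DDX10 and NOB1 passed in 0 of the 5 comparisons, 8 passed in 1, 14 in 2, 16 in 3 and 2 in 4. How many comparisons each gene passed was not counted over all genes. Of all genes 57.3% passed with Ser-tRNA_Arg(CCG), 60.7% with Arg-tRNA_Cys(GCA) and 42.5% with Arg-tRNA_Trp(CCA), so several passes per gene are common. The genes that fell with Ser-tRNA_Arg(CCG), Arg-tRNA_Cys(GCA) and Arg-tRNA_Trp(CCA) alike were RRP9, POLR1B, UTP15, UTP20, NOP14, WDR12 and NOC3L, and RRN3 rose in all 3. Calls shared by all 3 were not counted over all genes. Of the 23 genes called with both Arg-tRNA_Cys(GCA) and Arg-tRNA_Trp(CCA), 8 rose in both, 8 fell in both and 7 moved in opposite directions. Over all genes 7149 were called with both, of which 2977 rose in both, 2876 fell in both and 1296 moved in opposite directions. Over all 5 comparisons 13 genes rose in 1 and fell in another, each with a called difference between the effects. Such genes were not counted over all genes and all 5 comparisons. Between Ser-tRNA_Arg(CCG) and Arg-tRNA_Cys(GCA), 5 of the 22 genes called with both moved in opposite directions, against 3211 of 8589 over all genes. For Ser-tRNA_Arg(CCG) and Arg-tRNA_Trp(CCA) it was 9 of 19, against 1828 of 6329. Any difference between effects, in opposite directions or not, was called for 56.5% of all genes between Ser-tRNA_Arg(CCG) and Arg-tRNA_Cys(GCA), 45.3% between Ser-tRNA_Arg(CCG) and Arg-tRNA_Trp(CCA), 43.7% between Arg-tRNA_Cys(GCA) and Arg-tRNA_Trp(CCA), and 48.2% between Arg-tRNA_Cys(GCA) and Arg-tRNA_His(GUG).

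**Figure D2:**
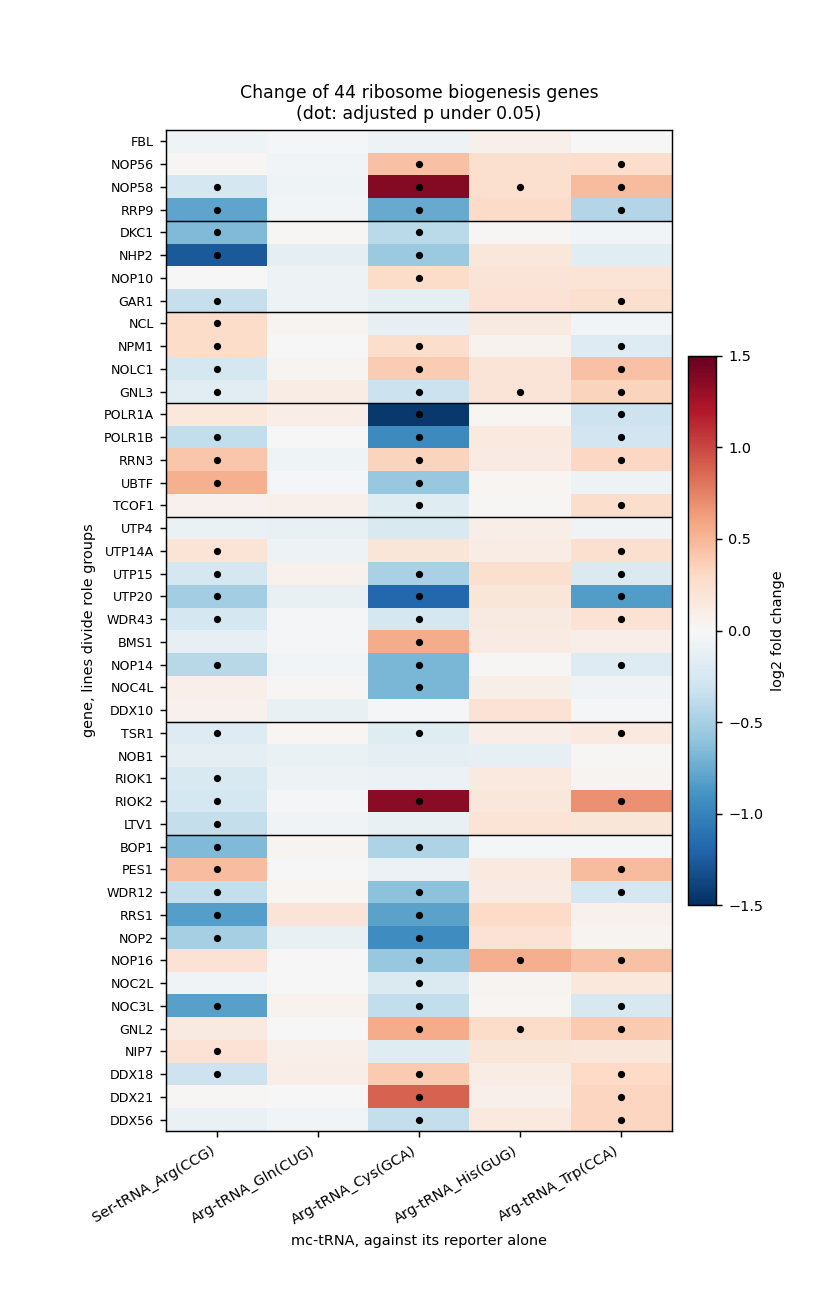
Log2 fold change (colour) of each of the 44 genes (rows, divided by role) with each mc-tRNA against its reporter alone (columns), with a dot where the adjusted p was under 0.05. Neighbouring genes of 1 role carry different colours, and the Arg-tRNA_Gln(CUG) column has 0 dots.

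The letters around the start of these genes show what several of them share outside their mRNA level. RefSeq promoter windows (GRCh38.p14), 250 bases before to 50 after a gene's start, exist for 38 of the 44 genes. The hexamer CACGTG, the E-box known to be bound by MYC with its partner MAX, was in a window of 16 of the 38, against 7.26% of all 35116 windows and 8.98% of the windows of genes tested here. It reads the same on both strands. The sites below are shown because they come from genes that moved in different directions. UTP20, RRP9, NOC3L and NOP14 fell with 3 mc-tRNAs, DDX21 and GNL2 rose with Arg-tRNA_Cys(GCA) and Arg-tRNA_Trp(CCA), PES1 rose with Ser-tRNA_Arg(CCG) and Arg-tRNA_Trp(CCA), and FBL passed no test. Each is 30 bases on the gene's strand with the hexamer in capitals. Relative to the start that sets the window, the hexamer's first base is at -31 in DDX21, -10 in UTP20 and -5 in RRP9. In the others it lies after that start.
UTP20 (chr12:101280083-101280112, + strand): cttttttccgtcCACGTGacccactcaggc
RRP9 (chr3:51941892-51941921, - strand): gggttcagctgcCACGTGagttctgcggcc
NOC3L (chr10:94362903-94362932, - strand): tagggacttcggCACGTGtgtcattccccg
NOP14 (chr4:2963374-2963403, - strand): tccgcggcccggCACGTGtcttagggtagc
DDX21 (chr10:68956604-68956633, + strand): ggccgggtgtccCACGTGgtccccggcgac
GNL2 (chr1:37595917-37595946, - strand): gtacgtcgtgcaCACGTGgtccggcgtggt
PES1 (chr22:30591880-30591909, - strand): tccttggcagggCACGTGcgggaggaagtg
FBL (chr19:39846356-39846385, - strand): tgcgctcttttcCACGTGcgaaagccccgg

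The same hexamer therefore stood in genes that rose, fell and did neither. Among genes with a window, it was in 9 of 17 that fell and 2 of 7 that rose with Ser-tRNA_Arg(CCG), in 7 of 19 and 3 of 8 with Arg-tRNA_Cys(GCA), and in 4 of 9 and 7 of 13 with Arg-tRNA_Trp(CCA). CACGTG was 1 of 19 patterns searched on both strands with the expression results already known, and it was picked for display after all 19 were seen, so its share is a description with no test. Other patterns were as frequent or further from the background. Here a gene counts once if any of its windows holds the pattern, and the percentages are shares of the windows of tested genes. CCGGAAG was in 16 of 38 genes against 14.7%, ACTTCCGG, which overlaps it, in 11 against 6.33%, and TCGCGAGA in 4 against 1.83%. The CpG-rich CGCGAG was in 17 (23.2%), and the ETS cores TTCCGG and, on the other part of that motif, CGGAAG were in 19 (23.9%) and 21 (26.8%). The NRF1-type palindrome was in 3 (1.78%) and a longer palindrome that holds TCGCGAGA in 1 (0.652%). The CCAAT box was in 17 (34.2%), its extended form GATTGGC in 5 (8.61%), the GC box GGGCGG in 28 (63%) and the cAMP element TGACGTCA in 2 (2.66%). GAANNTTC and the related TTCNNGAA were in 2 each (5.06% and 6.27%), and the TATA box TATAAA was in 2 (7.12%). The 3-unit heat shock element in either order and TGATGCAA were in 0 of the 38 genes (0.375% and 0.574%). A match is not a bound site.

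MYC mRNA itself fell by 1.40 ± 0.08 with Ser-tRNA_Arg(CCG) (86.9 to 33.0 CPM), by 0.88 ± 0.08 with Arg-tRNA_Cys(GCA) (117 to 63.5 CPM) and by 0.22 ± 0.07 with Arg-tRNA_Trp(CCA) (103 to 88.7 CPM). Its changes with Arg-tRNA_Gln(CUG), 0.11 ± 0.07, and Arg-tRNA_His(GUG), 0.06 ± 0.07, did not pass. MYC is 1 of 15 growth regulators on a list drawn up by role. Of these, 7 rose and 3 fell with Ser-tRNA_Arg(CCG), and 7 rose and 5 fell with Arg-tRNA_Cys(GCA). With Arg-tRNA_Trp(CCA) 4 rose and 2 fell. That is 66.7%, 80% and 40% of the list, against 57.3%, 60.7% and 42.5% of all genes. The lowest change on the list was -1.27 with Arg-tRNA_Cys(GCA) and -0.45 with Arg-tRNA_Trp(CCA), below those of MYC. The part of MYC in the changes of the 44 genes was not tested.

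Box C/D snoRNP proteins did not move together. NOP58, a core protein of the particle (ENSG00000055044, chr2:202265716-202303666, + strand), had 214, 210 and 229 CPM in the EGFP(R96C) libraries and 562, 598 and 539 CPM with Arg-tRNA_Cys(GCA). The groups are far apart, a 2.60-fold rise (1.38 ± 0.07, adjusted p = 2.54e-19). It rose with Arg-tRNA_Trp(CCA) too, from 274, 258 and 226 to 372, 362 and 316 CPM (0.47 ± 0.07, adjusted p = 4.38e-07). With Ser-tRNA_Arg(CCG) it fell, from 488, 497 and 496 to 405, 416 and 417 CPM (-0.26 ± 0.07, adjusted p = 0.00108). With Arg-tRNA_His(GUG) it went from 206, 200 and 200 to 251, 246 and 216 CPM (0.24 ± 0.07, adjusted p = 0.0473). That last call was lost without each of 5 of the 6 libraries, all but EGFP(R96H)+Arg-tRNA_His(GUG) replicate 3 (adjusted p 0.0778 to 0.345). With Arg-tRNA_Gln(CUG) it had 202, 214 and 194 CPM against 217, 205 and 218, which overlap.

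The other proteins of this role followed it in part. FBL, the methyltransferase of the particle, passed in 0 comparisons, with changes of -0.08 to 0.07. NOP56 rose with Arg-tRNA_Cys(GCA) (0.44 ± 0.08) and Arg-tRNA_Trp(CCA) (0.26 ± 0.08). Scaled to library totals the first reads -0.10. The second was lost without EGFP(R96W)+Arg-tRNA_Trp(CCA) replicate 1 or 2 (adjusted p = 0.0716 and 0.104). RRP9, a protein of the U3 particle that starts small subunit processing, fell with Ser-tRNA_Arg(CCG) (-0.80 ± 0.12), Arg-tRNA_Cys(GCA) (-0.75 ± 0.12) and Arg-tRNA_Trp(CCA). In the last it went from 34.6, 32.1 and 33.4 to 25.8, 28.0 and 19.7 CPM (-0.44 ± 0.12, adjusted p = 0.00472), with no overlap.

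Among box H/ACA proteins, NHP2 (ENSG00000145912, chr5:178149460-178153967, - strand) had the largest fall of the 44 genes with Ser-tRNA_Arg(CCG). It went from 54.2, 56.3 and 61.1 to 23.6, 23.0 and 25.2 CPM, a 2.39-fold fall (-1.26 ± 0.08, adjusted p = 4.13e-16). With Arg-tRNA_Cys(GCA) it fell from 151.95, 156.7 and 140.3 to 98.7, 92.1 and 114.4 CPM (-0.56 ± 0.07, adjusted p = 1.97e-08). It had 111, 104 and 100 CPM with Arg-tRNA_Gln(CUG) against 117, 122 and 110, and 87.2, 99.3 and 87.9 CPM with Arg-tRNA_Trp(CCA) against 100, 105 and 103. With Arg-tRNA_His(GUG) it had 144.9, 137.5 and 125.7 CPM against 127, 120 and 115, and none of these 3 passed. DKC1, the pseudouridine synthase, fell with Ser-tRNA_Arg(CCG) (-0.66 ± 0.06) and Arg-tRNA_Cys(GCA) (-0.40 ± 0.06).

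GAR1, another protein of that particle, fell with Ser-tRNA_Arg(CCG) as well (-0.35 ± 0.07) but rose with Arg-tRNA_Trp(CCA) (0.24 ± 0.07), a rise lost without EGFP(R96W) replicate 3 (adjusted p = 0.0716). NOP10 rose with Arg-tRNA_Cys(GCA) (0.28 ± 0.11) and passed in no other comparison, although its 5 effects were not called different. That call was lost without EGFP(R96C) replicate 1 or 3 or without EGFP(R96C)+Arg-tRNA_Cys(GCA) replicate 1 or 3 (adjusted p 0.072 to 0.279), and it reads -0.26 scaled to library totals.

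Nucleolar scaffold and chaperone proteins moved in both directions. Per kilobase of exon, NPM1, a nucleolar chaperone, had the highest median level of the members with a known length (512 RPKM), above NCL at 154.8 and FBL at 153.4 RPKM, while UTP20 had the lowest (6.29 RPKM). With Ser-tRNA_Arg(CCG), NCL (0.28 ± 0.06) and NPM1 (0.27 ± 0.07) rose, and NOLC1, a chaperone of snoRNPs (-0.27 ± 0.07), and GNL3, a nucleolar GTPase (-0.16 ± 0.06), fell. The GNL3 fall was lost without EGFP(R65)+Ser-tRNA_Arg(CCG) replicate 3 (adjusted p = 0.0711). NOLC1 rose with Arg-tRNA_Cys(GCA) (0.39 ± 0.07; -0.16 scaled to library totals) and Arg-tRNA_Trp(CCA) (0.44 ± 0.07). NPM1 rose with Arg-tRNA_Cys(GCA) (0.26 ± 0.07), which reads -0.29 scaled to library totals. It fell with Arg-tRNA_Trp(CCA) (-0.19 ± 0.07), a call lost without EGFP(R96W) replicate 2 or EGFP(R96W)+Arg-tRNA_Trp(CCA) replicate 1 or 3 (adjusted p 0.0824 to 0.109). NPM1, BMS1 and RRN3 have near-identical pseudogene copies, so their counts are uncertain where reads could be split.

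GNL3 changed sign between mc-tRNAs. It fell with Arg-tRNA_Cys(GCA) (-0.33 ± 0.06) and rose with Arg-tRNA_Trp(CCA) (0.34 ± 0.06). With Arg-tRNA_His(GUG) it went from 284, 274 and 270 to 322, 332 and 296 CPM (0.20 ± 0.06, adjusted p = 0.0482). That call was lost without each of the same 5 libraries as that of NOP58 (adjusted p 0.067 to 0.277).

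Of the RNA polymerase I genes, 4 of 5 fell and 1 rose with Arg-tRNA_Cys(GCA), where 60.7% of all genes passed. POLR1A, the largest subunit of the enzyme (ENSG00000068654, chr2:86020216-86106155, - strand), went from 126, 119 and 123 to 45.4, 46.9 and 42.0 CPM, a 2.74-fold fall (-1.45 ± 0.09, adjusted p = 8.6e-16). This is the largest change of any of the 44 genes in the 5 comparisons. With Arg-tRNA_Trp(CCA) it fell from 109, 105 and 92.8 to 88.2, 84.6 and 75.6 CPM (-0.31 ± 0.09, adjusted p = 0.00445). The 3 others did not pass: it had 138.4, 132.03 and 123.4 CPM with Ser-tRNA_Arg(CCG) against 125, 124 and 105, 154.8, 132.6 and 133.7 CPM with Arg-tRNA_Gln(CUG) against 148.8, 122.6 and 123.01, and 107, 103 and 94.7 CPM with Arg-tRNA_His(GUG) against 112, 98.7 and 89.1. These 3 pairs of groups overlap. POLR1B, the second largest subunit, went from 110, 104 and 90.7 to 54.3, 51.7 and 51.7 CPM with Arg-tRNA_Cys(GCA) (-0.95 ± 0.07, adjusted p = 5.92e-14), with no overlap. It fell also with Ser-tRNA_Arg(CCG) (-0.37 ± 0.07) and Arg-tRNA_Trp(CCA) (-0.29 ± 0.07).

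The other 3 genes of this role are RRN3, UBTF and TCOF1. RRN3, which links the enzyme to its promoter factors, rose with Ser-tRNA_Arg(CCG), from 161.6, 159.6 and 133.1 to 209.2, 211.96 and 185.00 CPM (0.42 ± 0.08, adjusted p = 4.97e-05). It rose with Arg-tRNA_Cys(GCA) (0.33 ± 0.08; -0.21 scaled to library totals) and Arg-tRNA_Trp(CCA) (0.31 ± 0.08). UBTF, which binds ribosomal DNA, had the largest rise with Ser-tRNA_Arg(CCG), from 89.0, 86.7 and 78.2 to 120, 128 and 120 CPM (0.54 ± 0.06, adjusted p = 4.85e-09). It fell with Arg-tRNA_Cys(GCA) (-0.56 ± 0.06). TCOF1, a nucleolar phosphoprotein needed for this transcription, fell with Arg-tRNA_Cys(GCA) (-0.18 ± 0.05) and rose with Arg-tRNA_Trp(CCA) (0.26 ± 0.05).

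The small subunit processome, the large particle that first folds and cuts the small subunit's RNA, had 4 of 9 genes fall and 1 rise with Ser-tRNA_Arg(CCG), 5 fall and 1 rise with Arg-tRNA_Cys(GCA), and 3 fall and 2 rise with Arg-tRNA_Trp(CCA). The shares that passed, 55.6%, 66.7% and 55.6%, stand beside 57.3%, 60.7% and 42.5% of all genes, so those with Ser-tRNA_Arg(CCG) and Arg-tRNA_Cys(GCA) are near the background. UTP20 (ENSG00000120800, chr12:101280109-101386616, + strand), one of its largest proteins, fell in all 3. With Arg-tRNA_Cys(GCA) it went from 63.1, 62.5 and 54.3 to 26.0, 29.9 and 23.6 CPM (-1.18 ± 0.13, adjusted p = 1.05e-08). With Arg-tRNA_Trp(CCA) it went from 73.1, 67.5 and 49.2 to 36.9, 34.4 and 35.1 CPM (-0.84 ± 0.12, adjusted p = 5.19e-06). Neither pair of groups overlaps, although the EGFP(R96W) libraries are spread widely. With Ser-tRNA_Arg(CCG) the change was -0.52 ± 0.12.

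BMS1, the GTPase of the particle, was the rise with Arg-tRNA_Cys(GCA) (0.55 ± 0.06), which reads 0.01 scaled to library totals. NOP14 fell with Ser-tRNA_Arg(CCG) (-0.42 ± 0.06), Arg-tRNA_Cys(GCA) (-0.69 ± 0.06) and Arg-tRNA_Trp(CCA) (-0.20 ± 0.06), the last lost without EGFP(R96W)+Arg-tRNA_Trp(CCA) replicate 3 (adjusted p = 0.0873). UTP15 fell in the same 3 (-0.26 to -0.22 with Ser-tRNA_Arg(CCG) and Arg-tRNA_Trp(CCA), -0.49 with Arg-tRNA_Cys(GCA)). Its call with Arg-tRNA_Trp(CCA) was lost without EGFP(R96W) replicate 1 or 2 or EGFP(R96W)+Arg-tRNA_Trp(CCA) replicate 3 (adjusted p 0.0985 to 0.121). NOC4L fell with Arg-tRNA_Cys(GCA) (-0.68 ± 0.08) and passed in no other comparison.

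WDR43 fell with Ser-tRNA_Arg(CCG) and Arg-tRNA_Cys(GCA) (-0.26 ± 0.06 in each) and rose with Arg-tRNA_Trp(CCA) (0.21 ± 0.06), a rise lost without EGFP(R96W) replicate 3 (adjusted p = 0.0868). UTP14A passed narrowly with Ser-tRNA_Arg(CCG) (0.21 ± 0.09, adjusted p = 0.0469), a call lost without any 1 of its 6 libraries (adjusted p 0.0507 to 0.141). With Arg-tRNA_Trp(CCA) (0.24 ± 0.09) it was lost without EGFP(R96W) replicate 1 or 3 or EGFP(R96W)+Arg-tRNA_Trp(CCA) replicate 1 or 2 (adjusted p 0.0554 to 0.198). UTP4 and DDX10 passed nowhere.

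In late small subunit maturation the largest changes were those of RIOK2, a kinase-like ATPase that acts on the late particle (ENSG00000058729, chr5:97160867-97183260, - strand). With Arg-tRNA_Cys(GCA) it went from 32.5, 34.0 and 34.8 to 91.0, 91.2 and 76.8 CPM, a 2.56-fold rise (1.35 ± 0.07, adjusted p = 5.6e-18). With Arg-tRNA_Trp(CCA) it went from 40.6, 41.4 and 35.9 to 65.7, 66.4 and 58.0 CPM (0.69 ± 0.07, adjusted p = 1.29e-09), the largest rise of the 44 genes there. With Ser-tRNA_Arg(CCG) it fell from 74.2, 71.1 and 67.9 to 57.3, 62.3 and 58.3 CPM (-0.26 ± 0.07, adjusted p = 0.00214). No pair of groups overlaps in these 3. It had 30.7, 35.1 and 31.1 CPM with Arg-tRNA_Gln(CUG) against 34.4, 31.4 and 32.7, and 43.2, 42.0 and 37.5 CPM with Arg-tRNA_His(GUG) against 36.4, 36.6 and 36.3, and neither passed.

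RIOK1, a related kinase, fell with Ser-tRNA_Arg(CCG) (-0.22 ± 0.06), as did LTV1 (-0.35 ± 0.08), an assembly factor that leaves the late particle. Neither passed in another comparison. TSR1 fell with Ser-tRNA_Arg(CCG) (-0.19 ± 0.06) and Arg-tRNA_Cys(GCA) (-0.18 ± 0.06; lost without EGFP(R96C) replicate 1, adjusted p = 0.0735). It rose with Arg-tRNA_Trp(CCA) (0.15 ± 0.06), a call lost without EGFP(R96W) replicate 1 or 3 or EGFP(R96W)+Arg-tRNA_Trp(CCA) replicate 1 or 2 (adjusted p 0.0571 to 0.168). NOB1, the nuclease that makes the final cut of the small subunit RNA, passed nowhere, with changes of -0.15 to 0.01.

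**Figure D3:**
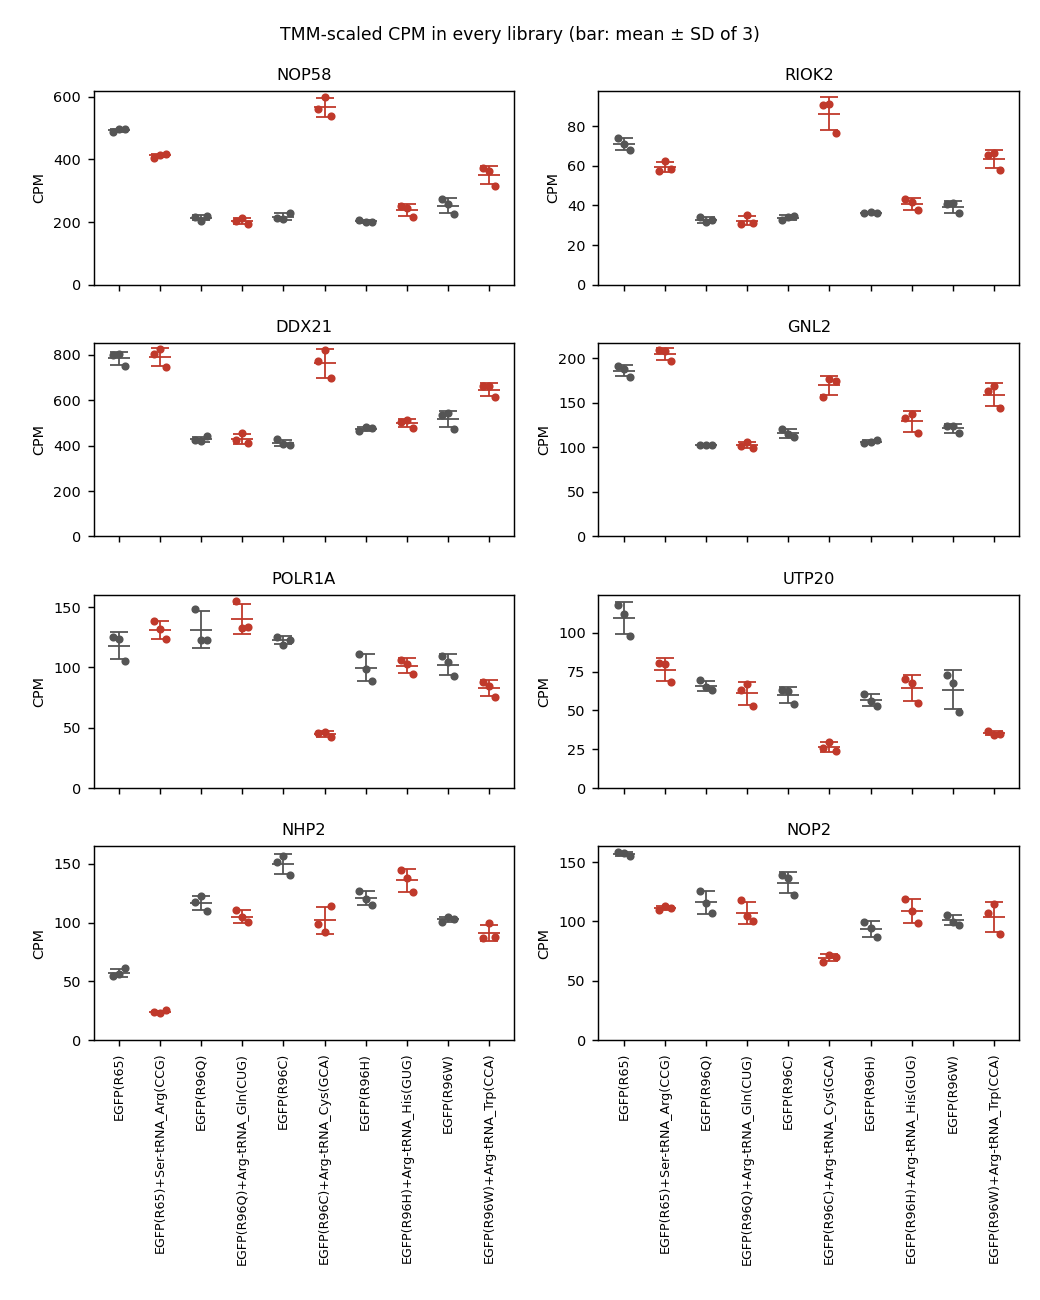
TMM-scaled CPM of 8 genes in every library, from 0, with grey for the reporter alone and red with the mc-tRNA, and bars for the mean ± SD of 3. NOP58, RIOK2 and DDX21 are highest or near highest with Arg-tRNA_Cys(GCA), POLR1A is lowest there, and NHP2 is lowest with Ser-tRNA_Arg(CCG).

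Large subunit assembly had 6 of 13 genes fall and 2 rise with Ser-tRNA_Arg(CCG), 8 fall and 3 rise with Arg-tRNA_Cys(GCA), and 2 fall and 6 rise with Arg-tRNA_Trp(CCA). That is 61.5%, 84.6% and 61.5% of the group, against 57.3%, 60.7% and 42.5% of all genes. BOP1, PES1 and WDR12 form 1 complex needed to make the large subunit RNAs, and they parted. With Ser-tRNA_Arg(CCG), BOP1 (-0.66 ± 0.07) and WDR12 (-0.36 ± 0.06) fell while PES1 rose from 166.3, 175.9 and 154.96 to 236.9, 235.6 and 214.1 CPM (0.47 ± 0.10, adjusted p = 0.000257). With Arg-tRNA_Trp(CCA), WDR12 fell (-0.26 ± 0.06), BOP1 had -0.02 ± 0.07, and PES1 rose from 132.2, 127.7 and 129.7 to 200.9, 196.6 and 145.03 CPM (0.48 ± 0.10, adjusted p = 0.000349). With Arg-tRNA_Cys(GCA), BOP1 (-0.46 ± 0.07) and WDR12 (-0.62 ± 0.06) fell and PES1 had -0.08 ± 0.10.

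RRS1, which brings the 5S RNA particle into the precursor, fell with Ser-tRNA_Arg(CCG) from 21.0, 24.0 and 19.8 to 10.6, 11.8 and 14.2 CPM (-0.83 ± 0.10, adjusted p = 1.02e-08) and with Arg-tRNA_Cys(GCA) (-0.80 ± 0.10). NOC3L fell with Ser-tRNA_Arg(CCG) from 107, 110 and 97.5 to 58.7, 62.1 and 57.4 CPM (-0.82 ± 0.09, adjusted p = 1.78e-09). Its groups do not overlap. It fell with Arg-tRNA_Cys(GCA) (-0.37 ± 0.09) and Arg-tRNA_Trp(CCA) (-0.24 ± 0.09). The last was lost without EGFP(R96W) replicate 1 or 2 or EGFP(R96W)+Arg-tRNA_Trp(CCA) replicate 1 or 3 (adjusted p 0.0644 to 0.141). NOP2, an RNA methyltransferase, fell with Ser-tRNA_Arg(CCG) (-0.50 ± 0.08) and Arg-tRNA_Cys(GCA) (-0.94 ± 0.08). NOC2L fell with Arg-tRNA_Cys(GCA) (-0.22 ± 0.07), lost without EGFP(R96C) replicate 1 (adjusted p = 0.055).

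The RNA helicases of this group rose with Arg-tRNA_Trp(CCA). DDX21 (ENSG00000165732, chr10:68956128-68985073, + strand) rose by 0.32 ± 0.06 there, and with Arg-tRNA_Cys(GCA) it went from 427, 407 and 404 to 772, 823 and 696 CPM, a 1.85-fold rise (0.89 ± 0.06, adjusted p = 5.13e-15) without overlap. DDX18 rose with Arg-tRNA_Trp(CCA) (0.29 ± 0.06) and Arg-tRNA_Cys(GCA) (0.39 ± 0.06; -0.15 scaled to library totals) and fell with Ser-tRNA_Arg(CCG) (-0.31 ± 0.06). DDX56 rose with Arg-tRNA_Trp(CCA) (0.33 ± 0.08) and fell with Arg-tRNA_Cys(GCA) (-0.36 ± 0.08).

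GNL2, a nucleolar GTPase, rose with Arg-tRNA_Cys(GCA) (0.55 ± 0.06; 0.01 scaled to library totals), Arg-tRNA_Trp(CCA) (0.39 ± 0.06) and Arg-tRNA_His(GUG). In the last it went from 105.3, 105.9 and 108.5 to 133.4, 138.1 and 116.4 CPM (0.28 ± 0.06, adjusted p = 0.0124). NOP16 went from 27.0, 25.0 and 21.6 to 42.6, 37.1 and 28.1 CPM with Arg-tRNA_His(GUG) (0.55 ± 0.13, adjusted p = 0.0193), the largest of the 4 rises there. Both these calls were lost without EGFP(R96H) replicate 2 or 3 or EGFP(R96H)+Arg-tRNA_His(GUG) replicate 1 or 2 (adjusted p 0.0625 to 0.131 for GNL2 and 0.0684 to 0.212 for NOP16). NOP16 fell with Arg-tRNA_Cys(GCA) (-0.56 ± 0.13). It rose with Arg-tRNA_Trp(CCA) (0.44 ± 0.13), where its groups overlap and the call was lost without EGFP(R96W)+Arg-tRNA_Trp(CCA) replicate 2 (adjusted p = 0.062). NIP7 rose with Ser-tRNA_Arg(CCG) (0.22 ± 0.09), a call lost without EGFP(R65) replicate 2 or 3 or EGFP(R65)+Ser-tRNA_Arg(CCG) replicate 1 or 2 (adjusted p 0.0601 to 0.174).

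**Figure D4:**
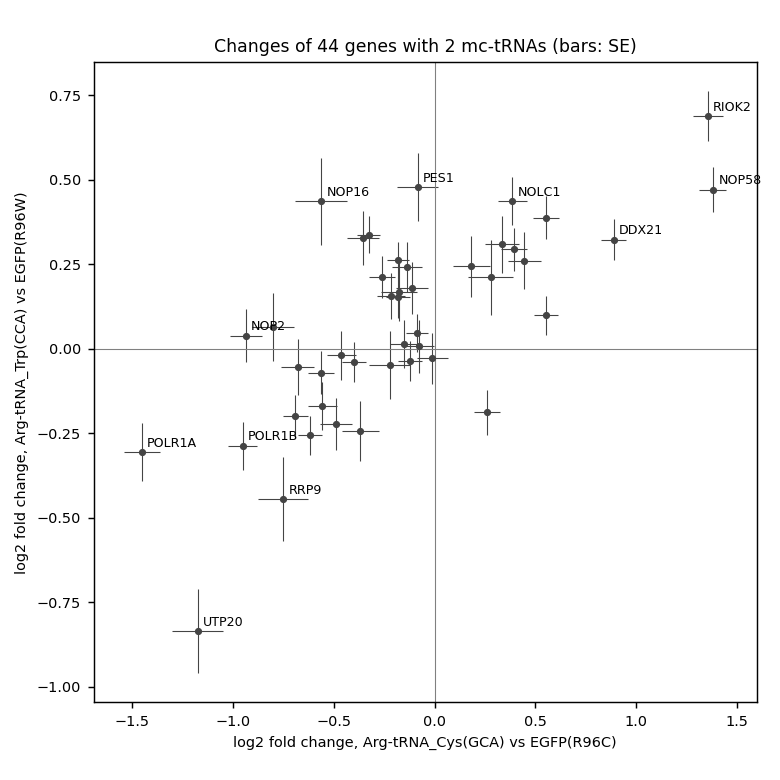
Log2 fold change of each of the 44 genes with Arg-tRNA_Cys(GCA) (x axis) and with Arg-tRNA_Trp(CCA) (y axis), with SE bars. RIOK2 and NOP58 lie far to the upper right, UTP20 to the lower left, and NOP16 rose on the y axis and fell on the x axis.

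Other genes of the pathway, from lists drawn up by role, moved in both directions as well. Over all genes, 57.3% passed with Ser-tRNA_Arg(CCG), 60.7% with Arg-tRNA_Cys(GCA) and 42.5% with Arg-tRNA_Trp(CCA). Of 46 other small subunit factors, 7 rose and 21 fell with Ser-tRNA_Arg(CCG), 16 rose and 22 fell with Arg-tRNA_Cys(GCA), and 20 rose and 8 fell with Arg-tRNA_Trp(CCA), which is 60.9%, 82.6% and 60.9% of the list. UTP18 fell with Ser-tRNA_Arg(CCG) (-1.29 ± 0.06), and DDX47, a helicase, rose with Arg-tRNA_Cys(GCA) (1.49 ± 0.16) and Arg-tRNA_Trp(CCA) (1.30 ± 0.15). Of 50 other large subunit factors, 6 rose and 18 fell, 22 rose and 22 fell, and 21 rose and 6 fell, in the same order (48%, 88% and 54%). RSL24D1 rose by 2.03 ± 0.08 and MYBBP1A fell by 1.49 ± 0.08 with Arg-tRNA_Cys(GCA).

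Of 19 other RNA polymerase I subunits and factors, 7 rose and 6 fell, 8 rose and 5 fell, and 13 rose and 1 fell (68.4%, 68.4% and 73.7%). POLR1G, a subunit of this polymerase, fell by 1.44 ± 0.12 with Arg-tRNA_Cys(GCA). Of 24 exosome and snoRNP assembly genes, 2 rose and 15 fell, 6 rose and 11 fell, and 9 rose and 2 fell (70.8%, 70.8% and 45.8%). NOPCHAP1, a chaperone of box C/D assembly, fell by 1.78 ± 0.09, 1.03 ± 0.09 and 0.52 ± 0.09. In these 4 lists 0 passed with Arg-tRNA_Gln(CUG) by edgeR, with 3, 5, 0 and 3 at an unadjusted p under 0.05. Over all 22321 genes 2270 had such a p. With Arg-tRNA_His(GUG), 3, 2, 1 and 1 rose and 0 fell, where 1.56% of all genes rose and 0.95% fell.

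The 44 genes also differed between reporters without any mc-tRNA. By an F-test, 41 of 44 differed among the 5 reporters alone (78.8% of all genes tested) and 31 among the 4 EGFP(R96) reporters (54.7% of all genes). The second count was 12 without replicate 1 and 13 without replicate 2 of every group. Against the mean of the 4 EGFP(R96) reporters, 32 genes were higher and 7 lower in EGFP(R65), where 69% of all genes differed (33.6% higher and 35.4% lower). NOP58 (1.16 ± 0.05), RIOK2 (1.00 ± 0.05), RRN3 (0.98 ± 0.06) and UTP4 (0.94 ± 0.07) were highest relative to the others. All 9 small subunit processome genes were higher. NHP2 (-1.08 ± 0.06), NOP10 (-0.77 ± 0.09) and FBL (-0.72 ± 0.07) were lowest. The EGFP(R65) libraries also differ from all others in their ERCC counts, so the reporter and whatever else sets these libraries apart cannot be told apart.

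**Figure D5:**
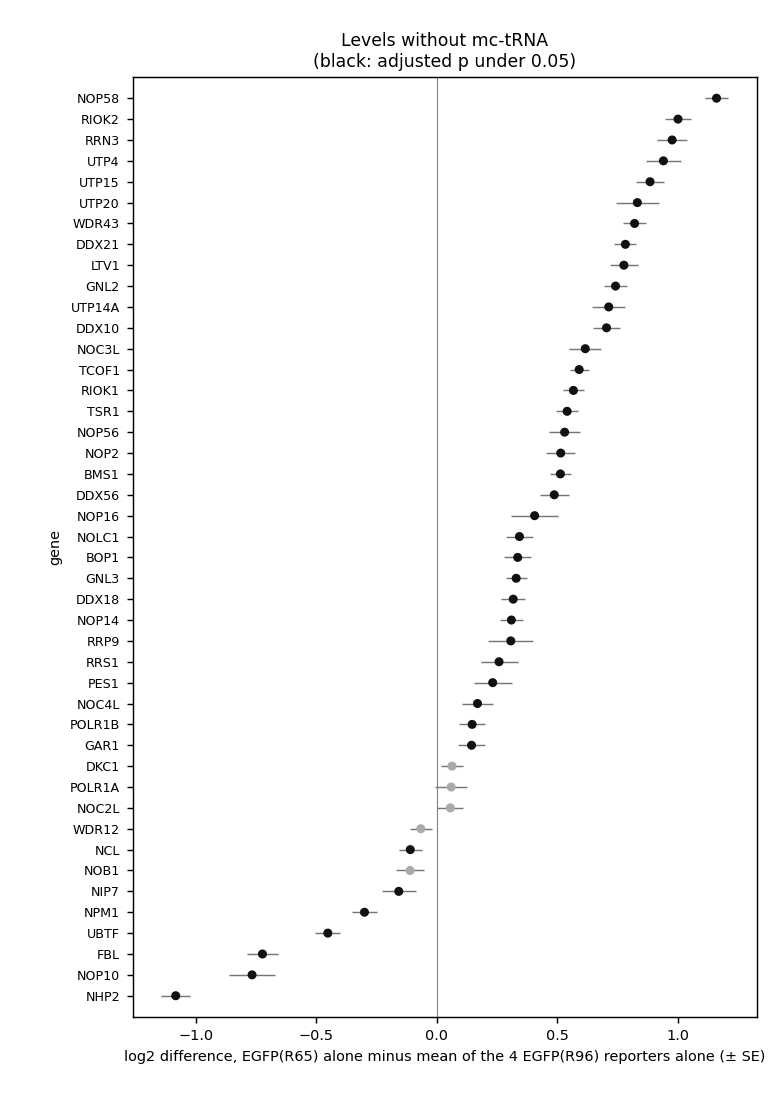
Log2 difference ± SE between the EGFP(R65) libraries and the mean of the 4 EGFP(R96) reporters, without mc-tRNA, for each gene (black where the adjusted p was under 0.05). NOP58 and RIOK2 are at the top and NHP2 is at the bottom.

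The summed level of the 44 genes was 9881 ± 122 CPM (SD, n = 3) in EGFP(R65) and 9895 ± 183 with Ser-tRNA_Arg(CCG), where single genes fell by up to 2.39-fold. It was 8729 ± 193 CPM in EGFP(R96C) and 9402 ± 272 with Arg-tRNA_Cys(GCA). As a plain share of all counts, the 44 genes took 0.9171% to 0.9296% in EGFP(R96C) and 0.660% to 0.697% with Arg-tRNA_Cys(GCA), so here too the scaling sets the direction. Small nucleolar RNAs are coded on the same strand inside NOP56, NOP58, DKC1, NCL, GNL3, WDR43 and TSR1. Their own levels were not analysed here.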

How the data were processed

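Poly(A)-selected, strand-specific mRNA libraries of sorted HEK293 cells were analysed, 3 described as independent replicates in each of 10 groups per the labels' protocols. The submitters' processing notes name STAR, SAMtools, featureCounts and build hg38. Their versions, the gene models and the strand setting were not given in the sources used here. What was deposited is a raw count of reads for each gene in each library. Of the 44 identifiers, 41 had the same version in GENCODE 29 (GRCh38), from which positions and exon lengths come; TCOF1, DDX10 and NIP7 did not.

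These counts entered a quasi-likelihood fit in edgeR 4.0.16 under R 4.3.3 (TMM, filterByExpr, robust) over all 30 libraries and 10 group means, with Benjamini-Hochberg adjustment over 22321 genes and a threshold of 0.05. All 44 genes passed the filter. A count of 0 allows up to 3 counts, 0.0541 to 0.0769 CPM; floors cover counting error only. Replicate pairs differed by 2.08 to 36.7 chi-square per degree of freedom. Replicate 3 stood apart in several groups, as in EGFP(R96W), with 3.98 between replicates 1 and 2 against 19.3 and 14.2. In others it did not, as with Arg-tRNA_Gln(CUG), with 7.62 between replicates 2 and 3 and 14.8 between 1 and 2. On simulated data for the EGFP(R96Q) comparison (21222 genes), 40%, 78%, 90% and 100% of 50 genes each changed 1.25-, 1.5-, 2- and 4-fold were recovered. Alternatives were RLE factors, library totals, no filter, a replicate block, only the 6 libraries compared, no EGFP(R65) libraries, DESeq2 1.42.0 and leaving out each library. For tests over more groups, each replicate number was left out of every group instead.

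The members and lists were chosen with earlier results of these data known. Genes named with values are the 5 largest rises and falls of each comparison among those called, and the largest called change of each role group where more than 10 were called. Values in every library are given for the 3 largest rises and falls, all called genes where fewer than 10 were called, and the 4 genes whose effects differed most. Other members are named to account for all 44, after their values were seen. Promoter patterns were searched in RefSeq windows; all 19 patterns tried are listed. One gene on the marker list of the line is not reported here.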

Additional observations from a re-analysis of the deposited data

Results flagged for a closer look

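The 5 mc-tRNA effects differed for 38 of the 44 genes by an F-test in edgeR, against 72.5% of all genes tested. For 13 genes the called direction itself changed: each rose with 1 mc-tRNA and fell with another. This count was not made over all genes. The differences below were taken only from pairs with opposite calls, so that they passed the test adds no support. The largest differences were those of NOP58, -1.64 (adjusted p = 6.37e-17), and RIOK2, -1.62 (adjusted p = 1.05e-15), both the Ser-tRNA_Arg(CCG) effect minus the Arg-tRNA_Cys(GCA) effect. The same pair of effects differed by 1.10 for UBTF and by -0.70 for DDX18. The Ser-tRNA_Arg(CCG) effect minus the Arg-tRNA_Trp(CCA) effect was -0.59 for GAR1, 0.46 for NPM1, -0.70 for NOLC1 and -0.34 for TSR1. The Arg-tRNA_Cys(GCA) effect minus the Arg-tRNA_Trp(CCA) effect was -0.67 for GNL3, -0.44 for TCOF1, -0.47 for WDR43 and -0.68 for DDX56. For NOP16 the Arg-tRNA_Cys(GCA) effect minus the Arg-tRNA_His(GUG) effect was -1.11 (adjusted p = 1.06e-05). Differences that involve Ser-tRNA_Arg(CCG) also compare the EGFP(R65) libraries with the others.

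ERCC spike-in sequences, which entered no comparison, had up to 106 counts in a library of the EGFP(R96) groups and 0 in the 6 EGFP(R65) libraries.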

How the results depend on the processing

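Scaled to library totals, 3 of the 44 genes rose and 38 fell with Arg-tRNA_Cys(GCA), 2 rose with Arg-tRNA_His(GUG), 11 rose with Arg-tRNA_Trp(CCA), and for the mean of the 5 effects 4 rose and 30 fell, against 15 and 15. The genes that reversed with Arg-tRNA_Cys(GCA) read -0.10 (NOP56), -0.26 (NOP10), -0.29 (NPM1), -0.16 (NOLC1), -0.21 (RRN3) and -0.15 (DDX18). The TMM factors were 0.714 to 0.730 with Arg-tRNA_Cys(GCA), against 1.04 to 1.08 in EGFP(R96C). What sets them apart was not tested, nor was the part of the larger share taken by the 10 most abundant genes. With only the 6 libraries compared, 11 rose with Ser-tRNA_Arg(CCG) and 13 with Arg-tRNA_His(GUG). Without the EGFP(R65) libraries, 2 rose with Arg-tRNA_His(GUG). Leaving out 1 library, the Arg-tRNA_His(GUG) rises ran from 0 to 8 and the Arg-tRNA_Trp(CCA) falls from 5 to 10 (5 without EGFP(R96W)+Arg-tRNA_Trp(CCA) replicate 3). Leaving out 1 replicate number of every group, the genes differing among the 4 EGFP(R96) reporters ran from 12 to 37. The cause was not tested. Single calls were lost with only the 6 libraries compared for NOP10 with Arg-tRNA_Cys(GCA) (adjusted p = 0.212), NOP16 with Arg-tRNA_His(GUG) (0.13), and UTP14A, TSR1 and NPM1 with Arg-tRNA_Trp(CCA) (0.0789 to 0.0989). With EGFP(R65) left out, the calls lost were NOP10 with Arg-tRNA_Cys(GCA), NOP58 and GNL3 with Arg-tRNA_His(GUG), and NPM1 and NOC3L with Arg-tRNA_Trp(CCA) (0.0518 to 0.0838). With no filter they were lost for NOP58 and GNL3 with Arg-tRNA_His(GUG) and TSR1 with Arg-tRNA_Trp(CCA) (0.0539 to 0.183). The member counts under RLE factors, no filter and DESeq2 stayed within 1.5 times.

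With the replicate number as a block, 10 rose with Arg-tRNA_His(GUG). Same-numbered libraries correlated at -0.08 to 0.14 in their deviations from the group means, and in no comparison did all 3 pairs exceed 0.1, so the numbers are not taken to pair the libraries. Differently numbered libraries correlated at -0.19 to 0.10. With Arg-tRNA_Trp(CCA) the same-numbered pairs (0.0528 to 0.131) all lay above the others (-0.0883 to 0.0463). Whether a weaker link than 0.1 exists was not tested. No other count of the 44 genes moved by over 1.5 times under the block.

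Over all genes, the Arg-tRNA_Gln(CUG) count of 123 was 196 with no filter, 231 with the block, 66 with the 6 libraries, 246 with DESeq2 and 45 to 93 without 1 library. The Arg-tRNA_His(GUG) count of 560 was 1124 with the block, 1911 with the 6 libraries, 369 without EGFP(R65), 910 with DESeq2 and 53 to 636 without 1 library.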
